A study of Homo sapiens with 16 samples.

Results

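The regions described here were called for MAFG, but not for MITF, in WM164 cells overexpressing GFP. WM164 is an established human melanoma cell line. The anti-MAFG lists (3) and anti-MITF lists (3) of GFP cells were merged where their peaks overlapped, which gave 43576 regions. Members were chosen by these calls alone: a region was taken as a MAFG-without-MITF region when at least 2 of the 3 anti-MAFG lists and none of the 3 anti-MITF lists had a peak in it. This left 5564 regions, 12.8% of all merged regions and 29.2% of the 19053 regions with anti-MAFG peaks in at least 2 lists.

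Occupancy was profiled by CUT&RUN, in which an antibody directs a nuclease to its target in isolated nuclei and the released fragments are sequenced. The series held 16 samples of WM164, all made from an overexpressing culture: GFP-overexpressing cells, which serve as the controls, and MAFG-overexpressing cells. Each line had 3 anti-MAFG samples, 3 anti-MITF samples, 1 anti-H3K4me3 sample and 1 anti-rabbit IgG sample, and the IgG samples were not analysed here. The vector, the promoter that drove GFP or MAFG, and whether a line was 1 clone are not given in the sources used here. No source says that replicates came from separate cultures, so every p-value measures only the spread between these libraries, which may be technical.

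MAFG is a small MAF protein, a basic leucine zipper factor that lacks a transactivation domain. It binds DNA as a homodimer or as a heterodimer with cap'n'collar and BACH proteins such as NRF2 (gene NFE2L2) and BACH1, at MAF recognition elements that contain an AP-1-like core, and these dimers are known for control of antioxidant and iron genes. MITF is a basic helix-loop-helix leucine zipper factor that binds E-boxes and directs the melanocyte lineage. H3K4me3 is a histone mark of active and poised promoters.

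Few of the regions contained a promoter, and those that did give the sequences that could be read. A whole RefSeq promoter window, 300 bases from 250 before to 50 after a gene start on GRCh38.p14, lay inside 266 of the 5564 regions (4.78%). These held 337 windows of 310 genes. The 8 windows below were chosen to show the motif matches next to different outcomes in MAFG cells. The first 5 lie in regions also called in 3 of 3 anti-MAFG lists of MAFG cells, and the last 3 in regions called there in at most 1 list. Capitals mark a match, on either strand, to TGANTCA (the AP-1 core), to the same core with TGC directly before it (a MAF recognition element, called the extended core here) or to TGACNNNGC (a MAF site written around its GC flank). Every extended core is also a TGANTCA match, and TGACNNNGC can overlap both. LUCAT1, ZBTB20, CYYR1-AS1 and C3AR1 were chosen after their values were seen.
LUCAT1: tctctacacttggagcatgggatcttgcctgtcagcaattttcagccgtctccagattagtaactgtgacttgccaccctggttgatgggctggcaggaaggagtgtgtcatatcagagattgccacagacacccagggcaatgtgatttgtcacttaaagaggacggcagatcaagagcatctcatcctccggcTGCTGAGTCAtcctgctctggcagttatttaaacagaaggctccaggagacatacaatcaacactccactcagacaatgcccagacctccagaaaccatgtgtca
ZBTB20: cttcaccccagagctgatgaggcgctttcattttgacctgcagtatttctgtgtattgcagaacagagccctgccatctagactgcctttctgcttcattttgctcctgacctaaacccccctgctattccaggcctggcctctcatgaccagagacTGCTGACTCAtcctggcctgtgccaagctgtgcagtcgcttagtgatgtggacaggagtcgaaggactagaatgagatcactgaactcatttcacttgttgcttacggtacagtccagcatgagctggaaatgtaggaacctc
CYYR1-AS1: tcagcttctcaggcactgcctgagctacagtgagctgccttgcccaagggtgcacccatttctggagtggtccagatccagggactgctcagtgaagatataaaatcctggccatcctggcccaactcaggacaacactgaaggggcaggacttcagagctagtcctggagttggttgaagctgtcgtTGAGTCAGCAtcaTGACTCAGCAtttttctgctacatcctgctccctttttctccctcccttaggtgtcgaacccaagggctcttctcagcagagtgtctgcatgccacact
MRO: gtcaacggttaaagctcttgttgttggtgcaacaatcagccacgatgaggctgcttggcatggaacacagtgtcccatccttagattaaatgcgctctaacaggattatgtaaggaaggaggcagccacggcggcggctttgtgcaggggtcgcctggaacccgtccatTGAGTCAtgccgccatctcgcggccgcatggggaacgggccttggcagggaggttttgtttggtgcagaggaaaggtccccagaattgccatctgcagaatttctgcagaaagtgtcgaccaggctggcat
C3AR1: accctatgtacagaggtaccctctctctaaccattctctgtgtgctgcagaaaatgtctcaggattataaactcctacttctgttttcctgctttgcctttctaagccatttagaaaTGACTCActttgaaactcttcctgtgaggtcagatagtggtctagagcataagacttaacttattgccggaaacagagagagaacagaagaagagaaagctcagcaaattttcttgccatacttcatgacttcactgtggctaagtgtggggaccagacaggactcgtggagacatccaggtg
GCLC-AS1: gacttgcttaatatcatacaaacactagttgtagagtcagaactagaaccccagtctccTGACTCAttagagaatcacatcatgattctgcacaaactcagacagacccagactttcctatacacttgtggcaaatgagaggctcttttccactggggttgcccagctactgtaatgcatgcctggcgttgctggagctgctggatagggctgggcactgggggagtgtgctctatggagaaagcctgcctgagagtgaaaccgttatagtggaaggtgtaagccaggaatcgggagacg
ANKRD17: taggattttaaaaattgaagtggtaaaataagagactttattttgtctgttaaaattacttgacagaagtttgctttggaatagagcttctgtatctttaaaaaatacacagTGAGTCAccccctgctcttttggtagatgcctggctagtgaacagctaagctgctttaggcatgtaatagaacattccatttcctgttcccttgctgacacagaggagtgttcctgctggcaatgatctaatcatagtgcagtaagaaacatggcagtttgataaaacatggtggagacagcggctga
SELENOK: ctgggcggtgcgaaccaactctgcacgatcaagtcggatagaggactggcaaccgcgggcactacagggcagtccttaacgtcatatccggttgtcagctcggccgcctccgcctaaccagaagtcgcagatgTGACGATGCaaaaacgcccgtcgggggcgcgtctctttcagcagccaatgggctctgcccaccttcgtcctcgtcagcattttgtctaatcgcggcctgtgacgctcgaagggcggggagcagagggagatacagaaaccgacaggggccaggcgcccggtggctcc

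The LUCAT1 window lies at chr5:91314353-91314652 on the minus strand, and LUCAT1 is a stress-responsive long non-coding RNA. The ZBTB20 window, of a zinc finger repressor, lies at chr3:114624896-114625195 on the minus strand. The CYYR1-AS1 window, of an antisense long non-coding RNA, lies at chr21:26405693-26405992 on the plus strand and was the one with a pair of extended cores. MRO, the gene of the HEAT-repeat protein maestro, has its window at chr18:50819967-50820266 on the minus strand. C3AR1, the receptor of the complement fragment C3a, has its window at chr12:8066310-8066609 on the minus strand. The GCLC-AS1 window lies at chr6:53493260-53493559 on the plus strand, beside GCLC, which encodes the catalytic subunit of the enzyme that limits glutathione synthesis. ANKRD17 encodes an ankyrin repeat protein, and its window lies at chr4:73223008-73223307 on the minus strand. SELENOK encodes a selenoprotein of the endoplasmic reticulum, and its window lies at chr3:53891810-53892109 on the minus strand.

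The GFP-cell lists held 26221, 23409 and 14879 anti-MAFG peaks and 19828, 20117 and 20102 anti-MITF peaks. The MAFG-cell lists were much shorter, with 1836, 1849 and 2818 anti-MAFG peaks and 2491, 2116 and 2495 anti-MITF peaks. The H3K4me3 lists held 13579 peaks for GFP cells and 11580 for MAFG cells. The lists give no read totals, so depth is not known, and peak number cannot be told apart from cell line in any comparison between the lines. For the melanocyte lineage, 5 of 6 marker genes (SOX10, MITF, PMEL, MLANA and TYR, not DCT) had H3K4me3 at a gene end in both lines. Of 3 keratinocyte markers none had the mark in either line, and of 3 blood markers SPI1 alone had it, in GFP cells.

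The regions were of modest strength. The values in this paragraph chose the regions and are given as a description without a test. Of the 5564 regions, 2004 (36%) had a peak in all 3 anti-MAFG lists and 3560 (64.0%) in 2. Among the latter the list without a peak was replicate 3, the shortest list, in 2546 (71.5%), replicate 2 in 674 and replicate 1 in 340. The authors' fold enrichment, a peak's signal over its local background, had medians of 6.47, 5.91 and 5.56 in the 3 lists, against 8.17, 7.21 and 6.40 for the 10347 shared regions, which had peaks in at least 2 lists of each antibody. Among the peaks in these regions, 4.1%, 4.01% and 3.02% were above percentile 90 of their list by fold, against 20.6%, 19.3% and 15.6% of those in shared regions. The median width was 871 bp (quartiles 686 and 1102), against 1526 bp for shared regions.

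The leading regions by rank in GFP cells lay both within genes and far from them. The leading region lay at chr2:198545544-198547320, outside protein-coding genes and 396150 bp from PLCL1, with folds of 24.01, 22.99 and 20.14 in the 3 GFP-cell anti-MAFG lists. A region in DDX10, which encodes a DEAD-box RNA helicase, lay at chr11:108937663-108939420 with folds of 21.32, 10.02 and 12.16. One in POC5, a gene for a centriole protein, lay at chr5:75716597-75717907 with folds of 21.22, 15.11 and 10.42. These were 3 of the 12 regions with the best mean rank among those in 3 of 3 lists. The other 9, in or nearest to RPA3 (with UMAD1), JRKL, ETNK1, TSN, ECT2, MDGA2, CDH19, FAM135B and TAOK1, had folds from 9.6 to 20.03. Of the 12, 5 lay over a gene and 1, at POC5, had H3K4me3 in GFP cells.

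Near the limits of the rule the values were mixed. Just inside it, the best-ranked regions with 2 of 3 anti-MAFG lists lay in or nearest to BCKDHB (folds 15.64 and 10.51), GRM7 (11.64 and 13.55) and HGF (11.74 and 12.48). The worst lay at CNOT11 (2.91 and 3.04), TUBA1C (2.91 and 3.12) and RYBP (2.59 and 3.23). Just outside it, 1542 regions had 3 of 3 anti-MAFG lists but 1 anti-MITF list. The best of these, nearest to AKR1B1, had anti-MAFG folds of 19.39, 19.98 and 15.18 and an anti-MITF fold of 9.77 in 1 list. The worst-ranked, nearest to SUGT1, had anti-MAFG folds of 3.4, 3.28 and 3.66 and an anti-MITF fold of 3.31. Absence from the anti-MITF lists is therefore absence of a call at the authors' threshold, not a measured lack of MITF.

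Most regions had no anti-MITF peak edge within 10000 bp. The rule itself removes regions that overlap an anti-MITF peak, and distances at randomly placed sites were not computed. The median distance from a region's anti-MAFG summit to the nearest anti-MITF summit was 27301 bp. In 297 regions (5.34%) an anti-MITF peak had its edge within 1000 bp, and in 3977 (71.5%) the nearest edge was over 10000 bp away. Another region of the same kind lay within 10000 bp of 635 regions (11.4%). The share that random placement would give was not computed.

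The regions lay farther from protein-coding gene ends than regions shared with MITF. An end here is either end of the gene in RefSeq, and 431 of 5564 summits (7.75%) were within 1000 bp of one, against a background of 17.9% of all merged regions. The median distance was 44381.5 bp, against 23732 bp for shared regions and 4465 bp for the 4285 regions with anti-MITF peaks in at least 2 lists and no anti-MAFG peak. Counted over the anti-MAFG peaks of each GFP-cell list, 7.59%, 7.72% and 7.48% of the peaks in these regions were near an end (7.60 ± 0.118, SD, n = 3). In shared regions the values were 20.6%, 20.3% and 19.2% (20.1 ± 0.751). The mean difference was -12.5 percentage points. The 3 lists also chose the regions and count largely the same ones, so their SD is not the error of an independent repeat, and no p-value is given. Within 5000 bp lay 909 regions (16.3%, background 29.9%), and the difference from shared regions was -14.3 points.

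**Figure D1:**
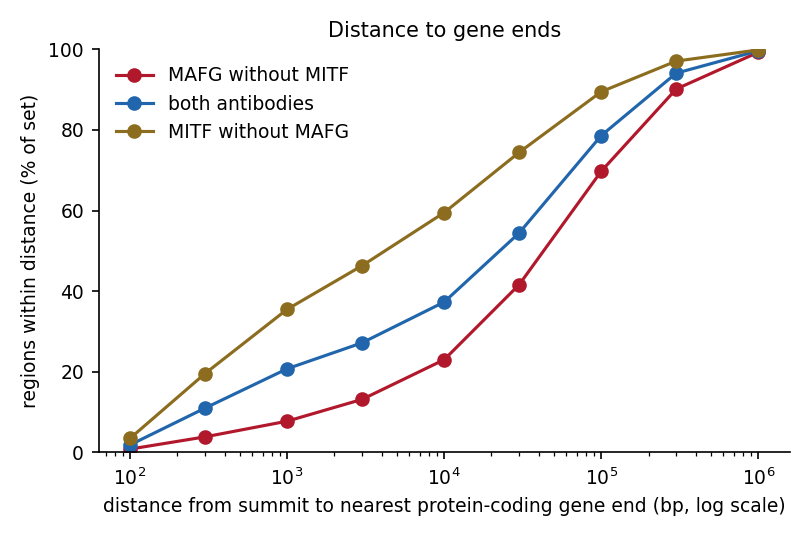
Cumulative percentage of regions (y axis) with their summit within a given distance in bp, on a log scale (x axis), of a protein-coding gene end, with 1 line for each of the 3 region sets. At 1000 bp the MAFG-without-MITF line stands at 7.75%, below both other sets, and at 100000 bp it stands at 69.75%.

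Many regions were remote. The summit was over 100000 bp from any protein-coding gene end in 1683 regions (30.2%, background 21.5%), against 21.4% of shared regions. The farthest lay 2222665 bp from an end of PCDH7, a protocadherin gene, and had anti-MAFG folds of 9.5, 7.88 and 7.64. Nevertheless 2827 regions (50.8%, background 55.1%) lay over a protein-coding gene body, and 54.5% of shared regions did.

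ROBO1, a guidance receptor gene 1170.8 kb long, held 13 regions, the most of any protein-coding gene, and SEMA3A, a secreted guidance cue, held 11 over 536.9 kb. IQCJ-SCHIP1, a readthrough gene that overlaps SCHIP1, also held 11. SOX5, a SOX-family regulator with a role in the neural crest, held 10 beside 11 shared regions. EPHA3, an ephrin receptor gene, and VTI1A, a SNARE gene, held 9 each. Among genes of at most 150 kb the most were 5 in MEGF9 and 4 each in ITPRID2, MAPK6, PLOD2 and TNFAIP8. ITPRID2, at 39.0 kb, had 8.16 regions per 100 kb of gene with its flanks, and ROBO1 had 1.1.

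The share of anti-MAFG regions without MITF varied along the genome. It was 45.9% on chromosome X (105 of 229, 95% Clopper-Pearson interval 39.3 to 52.5), 40.6% on chromosome 18 (113 of 278) and 36.6% on chromosome 4 (422 of 1152). It was lowest on chromosome 19, at 11.5% (9 of 78, interval 5.41 to 20.8), and on chromosome 22, at 14.7% (34 of 231). All such intervals cover counting error only.

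H3K4me3 was uncommon at these regions. An H3K4me3 peak of GFP cells overlapped 614 of 5564 (11%, interval 10.2 to 11.9), against a background of 28.8% of all merged regions. Shared regions had the mark in 37.1% and MITF regions without MAFG in 53.5%. Over the anti-MAFG peaks of each GFP-cell list, 11%, 10.9% and 10.6% of those in MAFG-without-MITF regions had the mark (10.8 ± 0.227, SD, n = 3). Of those in shared regions 37.3%, 36.5% and 35.2% did (36.3 ± 1.03). The mean difference was -25.5 percentage points, again over the lists that chose the regions and without a p-value. Each was set against the same H3K4me3 list, and with 1 H3K4me3 library per line the error of the mark itself was not measured.

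**Figure D2:**
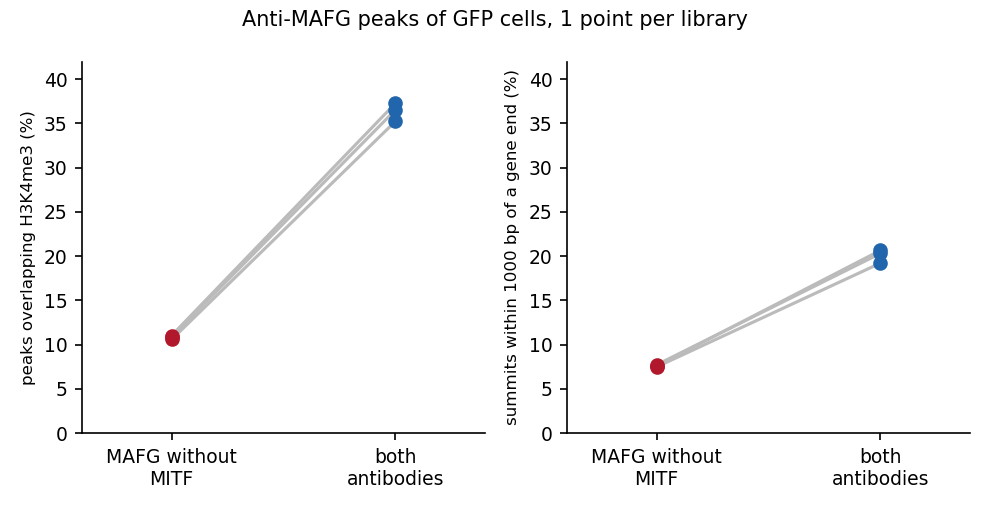
Percentage of anti-MAFG peaks (y axes) in MAFG-without-MITF and shared regions (x axes). The panels count peaks that overlapped an H3K4me3 peak or had their summit within 1000 bp of a protein-coding gene end. Each point is 1 GFP-cell anti-MAFG library, and grey lines join the values of the same library. The H3K4me3 values lie between 10.6% and 11% in MAFG-without-MITF regions and between 35.2% and 37.3% in shared regions.

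H3K4me3 was less common than in shared regions in every class of rank, with the widest gap in the lowest class. Peaks of each list were put in 5 classes by the rank of the authors' fold. With these classes weighted equally the H3K4me3 difference was -26.7 points. Regions were also put in 5 classes by their mean rank. In the lowest of these 13.5% of MAFG-without-MITF regions and 46.9% of shared regions had the mark. In the highest, where the gap was narrowest, 10.7% and 31.8% did. With the H3K4me3 list of MAFG cells, in which 471 regions (8.47%, background 23.9%) had a peak, the difference was -20.2 points.

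Where H3K4me3 was present it was often kept in the other line. Of the 614 marked regions, 465 (75.7%, interval 72.1 to 79.1) also had an H3K4me3 peak in MAFG cells, against 80.4% of marked shared regions. The median fold of the H3K4me3 peak was 25.68, against 33.65 at shared regions. Of the marked regions 309 (50.3%) lay within 1000 bp of a gene end. The strongest anti-MAFG region among them was that of POC5, whose H3K4me3 fold was 24.89 in GFP cells against 12.07 in the MAFG line. ANKRD17 had anti-MAFG folds of 12.29, 11.17 and 11.11 and an H3K4me3 fold of 13.40. SELENOK had anti-MAFG folds of 14.53, 11.17 and 7.64 with an H3K4me3 fold of 51.05. Also among the 8 best-ranked marked regions were those in or nearest to OOEP, DPF3, GNA12 and FBXW7, a ubiquitin ligase gene, with H3K4me3 folds from 6.38 to 18.02.

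In MAFG-overexpressing cells, a small part of the regions was called again for MAFG and almost none for MITF. An anti-MAFG peak was present in at least 2 of 3 MAFG-cell lists at 317 of 5564 regions (5.7%, background 3.47%). It was present in 3 lists at 199 regions (3.58%, background 2.01%) and in 1 or more at 547 (9.83%, background 6.84%), while 5017 regions (90.2%) had none. An anti-MITF peak was present in at least 2 of 3 MAFG-cell lists at 1 region (0.018%, background 4.59%) and in 1 or more at 20 (0.359%, background 8.4%). The MAFG-cell lists did not enter the rule, but the rule used the same antibodies in GFP cells. The background also holds regions with fewer anti-MAFG lists or with anti-MITF lists, so the rule favours these differences from it. Of shared regions 8.09% had an anti-MAFG peak in at least 2 of 3 MAFG-cell lists.

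Counted per library, 5.64%, 5.70% and 7.76% of the regions were in the MAFG-cell anti-MAFG lists (6.37 ± 1.21, SD, n = 3). In the MAFG-cell anti-MITF lists the values were 0.108%, 0.036% and 0.234% (0.126 ± 0.1). All anti-MAFG libraries were above all anti-MITF libraries, with a difference of 6.24 points (two-sided exact permutation test of 3 against 3, p = 0.1, the smallest possible). The lists of both antibodies in these cells were of similar length. The regions were chosen by anti-MAFG calls without anti-MITF calls in GFP cells. That choice favours the same order in MAFG cells, so the test cannot measure it independently of the rule.

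**Figure D3:**
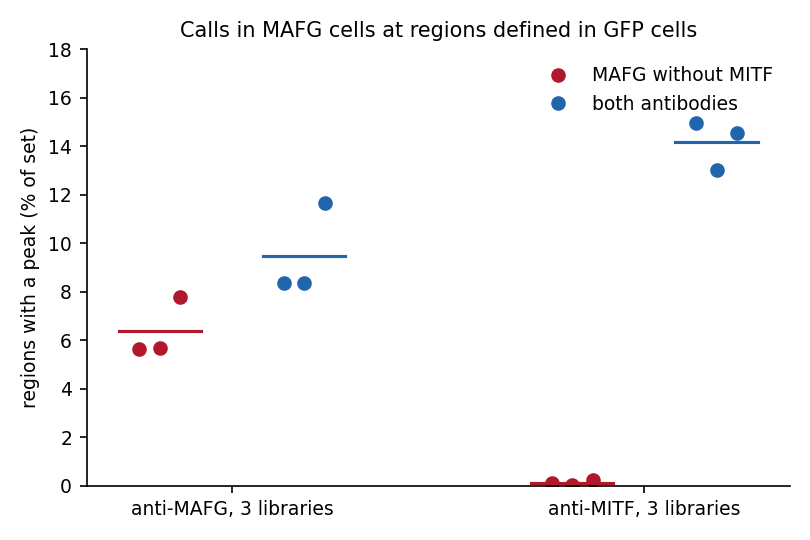
Percentage of regions called in each MAFG-cell library (y axis), by region set and antibody (x axis), with 1 point per library and a line at the mean. MAFG-without-MITF regions lie between 5.64% and 7.76% for anti-MAFG and between 0.036% and 0.234% for anti-MITF.

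Shared regions had a higher share called for MAFG in MAFG cells. Their shares were 8.37%, 8.36% and 11.7% (9.46 ± 1.90), above those of MAFG-without-MITF regions in each library, with a mean difference of -3.09 points (exact sign-flip permutation test, p = 0.25, the smallest possible, n = 3). With 5 equally weighted classes of GFP-cell rank the difference was -1.03 points. For anti-MITF, shared regions had 14.9%, 13% and 14.5% (14.2 ± 1.01), a difference of -14.0 points (exact sign-flip permutation test, p = 0.25). Shared regions were chosen by anti-MITF peaks in GFP cells and the others by their absence. That choice favours this direction, so the test cannot measure it independently of the rule.

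The share called in MAFG cells was highest in the best-ranked class. From the lowest to the highest of the 5 rank classes it was 5.49 ± 1.32, 5.76 ± 0.919, 5.99 ± 1.46, 6.46 ± 1.05 and 13.5 ± 1.73 percent (SD over 3 MAFG-cell lists). Shared regions had 4.12 ± 1.67, 5.61 ± 1.17, 5.94 ± 1.8, 9.25 ± 1.82 and 17.4 ± 2.69 percent. In the lowest class, with 1676 MAFG-without-MITF regions, these were above shared regions in each library (5.01% against 3.12%, 4.48% against 3.19% and 6.98% against 6.04%), the opposite direction to all regions together. In the next 2 classes, with 1440 and 1202 regions, the order varied between libraries, and in the highest 2, with 862 and 384, shared regions were above in each. These differences by class were not tested. Regions with 3 of 3 GFP-cell anti-MAFG lists were called in at least 2 MAFG-cell lists in 7.88%, and those with 2 of 3 in 4.47%.

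**Figure D4:**
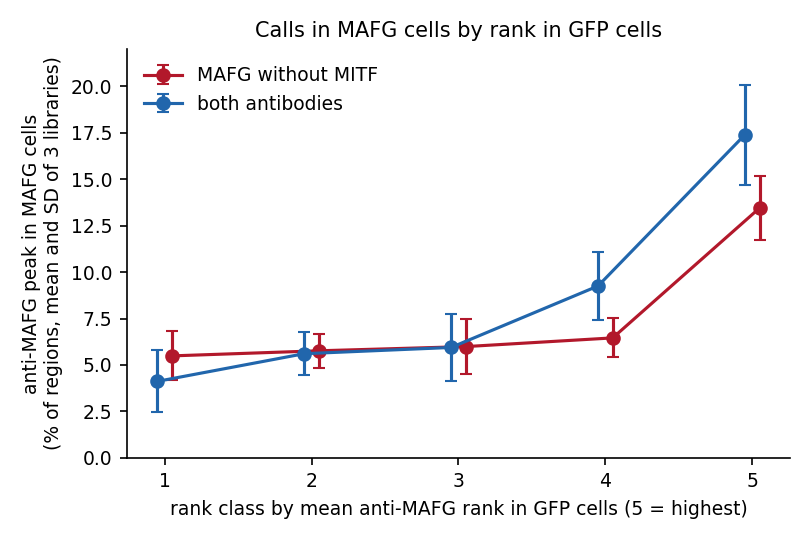
Percentage of regions called in the MAFG-cell anti-MAFG lists (y axis, mean with SD over 3 libraries) against class of mean anti-MAFG rank in GFP cells (x axis, 5 is the highest fold). MAFG-without-MITF regions run from 5.49% to 13.5% and shared regions from 4.12% to 17.4%.

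Regions called in both lines were mostly without H3K4me3. Of the 614 regions with the mark in GFP cells 11 had anti-MAFG peaks in at least 2 MAFG-cell lists, and of the 4950 without it 306 did. Per library the shares were 2.61%, 2.44% and 3.58% with the mark (2.88 ± 0.617) and 6.02%, 6.10% and 8.28% without it (6.80 ± 1.28). The difference, chosen after the data were seen, was -3.92 points (exact sign-flip permutation test, p = 0.25, the smallest possible, n = 3). With peaks of −log10 q of at least 5 it was -2.10 points. Close to gene ends 9 of 431 regions were called in at least 2 MAFG-cell lists, at intermediate distances 214 of 3450, and beyond 100000 bp 94 of 1683.

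The MAFG-cell peaks in these regions had a higher median rank within their own lists than those in shared regions. Their median percentile rank by fold was 61.0, 59.5 and 60.6 in the 3 anti-MAFG lists (60.4 ± 0.778). Peaks in shared regions had 48.1, 46.7 and 52.7 (49.2 ± 3.12), lower in each list. The difference, also chosen after the data were seen, was 11.2 percentile points (exact sign-flip permutation test, p = 0.25, the smallest possible, n = 3). Of all anti-MAFG peaks of MAFG cells, 17.3%, 17.2% and 15.6% lay in MAFG-without-MITF regions.

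The leading regions in MAFG cells were led by DDX10, which was also among the strongest in GFP cells. Its folds in MAFG cells were 31.79, 32.50 and 23.61, and 1 anti-MITF list of MAFG cells also had a peak there, with a fold of 6.63. The region in MAP1LC3B2, an LC3-family autophagy gene, lay at chr12:116559372-116559895 with folds of 24.97, 18.35 and 31.14 in MAFG cells and of 7.44 and 3.56 in 2 GFP-cell lists. A region nearest to PRICKLE2, a planar cell polarity gene, lay at chr3:64380864-64382116 with folds of 23.48, 18.17 and 28.93 in MAFG cells and of 2.82 and 4.62 in 2 GFP-cell lists. At MAP1LC3B2, 1 of the GFP-cell folds was above and 1 below the median of the regions in its list, and near PRICKLE2 both were below it.

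The region of MRO, whose promoter is printed above, lay at chr18:50819277-50820421 with folds of 20.45, 18.82 and 31.62 in MAFG cells and 9.89, 7.93 and 6.87 in GFP cells. The region in HFM1, a meiotic helicase gene, had folds of 17.45, 18.06 and 34.01 in MAFG cells and 9.06 and 7.10 in 2 GFP-cell lists. The other 7 of the 12 leading regions, in or nearest to TMEM108, ANO6 (a phospholipid scramblase gene), NBAS, CDYL (a chromodomain corepressor gene), SHE, SLC14A2 (a urea transporter gene) and FABP5 (a fatty acid carrier gene), had MAFG-cell folds from 13.97 to 24.90. At NBAS 1 anti-MITF list of MAFG cells also had a peak, with a fold of 6.94. None of the 12 had H3K4me3 in either line. Folds are relative to each list's own background, so a higher number in one line does not measure more binding.

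**Figure D5:**
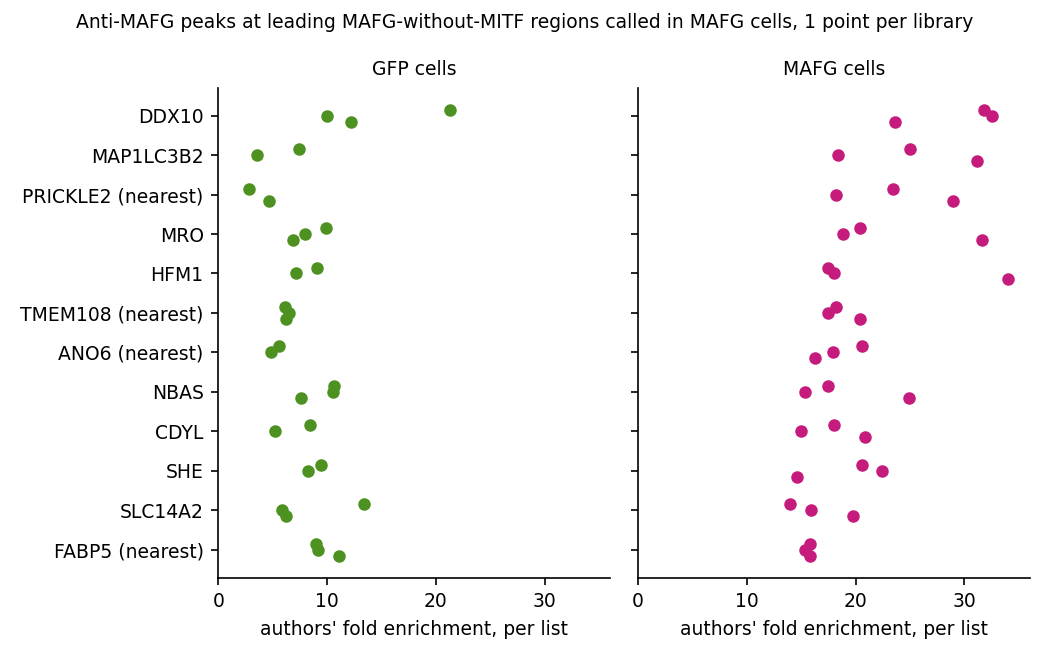
The authors' fold enrichment of anti-MAFG peaks (x axes) in GFP cells and MAFG cells at the 12 MAFG-without-MITF regions with the best mean rank in MAFG-cell lists (y axis), with 1 point per library that had a peak. DDX10 leads in MAFG cells with folds of 31.79, 32.50 and 23.61, and the folds of the lines are on separate backgrounds.

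Of the 12 best-ranked regions in GFP cells, 6 were called in at least 2 MAFG-cell anti-MAFG lists and 6 in none. Of all 5564 regions 5.7% were called in at least 2 lists (background 3.47%). In the highest rank class the mean share per library was 13.5%, and 17.4% for shared regions. The region nearest to TSN, the translin gene, at chr2:122634491-122636717 had folds of 7.54, 13.04 and 12.76 in MAFG cells. The region in CDH19, a cadherin gene of the neural crest lineage, at chr18:66559219-66560901 had folds of 14.53, 11.17 and 10.42 in GFP cells, against 12.42, 16.39 and 14.58 in MAFG cells. POC5, RPA3, JRKL, ETNK1, MDGA2 and TAOK1 marked the 6 regions with no MAFG-cell peak. The 1 region with anti-MITF peaks in at least 2 MAFG-cell lists lay in REEP1, which encodes a protein that shapes the endoplasmic reticulum, at chr2:86216667-86217347. There the MAFG-cell anti-MITF folds were 6.19 and 7.94 in 2 lists, and the anti-MAFG folds 12.31 and 10.24.

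The promoter windows held the E-box CACGTG less often than those of MITF-bound regions, while CATGTG, another E-box, was about as common. CACGTG, a palindromic E-box that reads the same on both strands, was in 7 of 337 windows (2.08%, interval 0.839 to 4.23), against 10.4% of windows in shared regions, 24.1% in MITF regions without MAFG and 7.26% of all windows. CATGTG was in 9.2%, against 7.86%, 9.26% and 11.1%. The CACGTG share was 3.64% with peaks of −log10 q of at least 5, 3.25% with 3 of 3 lists required, and 3.13% without GFP-cell anti-MAFG replicate 2 or without anti-MITF replicate 3. The 7 windows with CACGTG included those of HPGD, ADAMTS6, EIF3F and BCL11B, chosen after their values were seen. The median GC content was 58.0% in these windows, 64.0% in shared, 67.7% in MITF regions without MAFG and 58.7% in all windows, and its part in the CACGTG shares was not tested.

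MAF-type matches were present in a minority of the windows. TGANTCA was in 33 of 337 windows (9.79%, interval 6.84 to 13.5), against 6.57% in shared regions, 4.67% in MITF regions without MAFG and 7.71% of all windows. TGACNNNGC was in 59 (17.5%, interval 13.6 to 22), against 15.3%, 18.4% and 13.3%. The extended core was in 3 windows (0.89%, interval 0.184 to 2.58), against 0.307% in shared regions, 0 of 1328 windows in MITF regions without MAFG (interval up to 0.277%) and 0.416% of all windows. Those 3 windows are the LUCAT1, ZBTB20 and CYYR1-AS1 sequences printed above.

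Windows with an AP-1 core, extended cores included, had a higher share called in MAFG cells than other windows in each of the 3 libraries. Of the 33 with TGANTCA, 6 (18.2%) lay in a region with anti-MAFG peaks in at least 2 MAFG-cell lists, and of all 337 windows 12 (3.56%) did. The 6 with TGANTCA included all 3 windows with the extended core, while 30 of the 33 held TGANTCA without it. Of the 59 with TGACNNNGC 5 did (8.47%), of the 7 with CACGTG 2 (28.6%, interval 3.67 to 71.0), of the 31 with CATGTG 2 (6.45%), and of the 254 with none of the 3 MAF-type motifs 3 (1.18%). Differences between motifs were not tested, nor was TGANTCA apart from the extended core. Per library, 18.2%, 18.2% and 24.2% of windows with TGANTCA (20.2 ± 3.50) and 1.97%, 1.97% and 4.28% of those without it (2.74 ± 1.33) were called. The difference, tested after the data were seen, was 17.5 points (exact sign-flip permutation test, p = 0.25, the smallest possible, n = 3). It rests on 33 windows and was 27.0 points without the GFP-cell anti-MAFG replicate 1, 34.7 without replicate 2 and 27.9 with 3 of 3 lists required. In shared regions 16 of 214 windows with TGANTCA (7.48%), 37 of 499 with TGACNNNGC (7.41%), 14 of 339 with CACGTG (4.13%) and 128 of 2605 with none of the 3 MAF-type motifs (4.91%) were called. Those 16 included 5 with the extended core, and 204 of the 214 held TGANTCA without it.

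Of the 3 windows with the extended core all were called in MAFG cells (interval 29.2% to 100%), and in shared regions 5 of 10 were (50%, interval 18.7 to 81.3). The LUCAT1 region had folds of 7.27 and 6.57 in 2 GFP-cell lists and of 7.73, 7.41 and 10.23 in MAFG cells. The ZBTB20 region had folds of 9.89, 9.25 and 5.76 in GFP cells, against of 5.58, 4.96 and 6.69 in MAFG cells. The CYYR1-AS1 region had folds of 3.88 and 4.66 in 2 GFP-cell lists and of 8.55, 6.33 and 9.86 in MAFG cells. None of these 3 had H3K4me3 in GFP cells. The C3AR1 region, with the AP-1 core alone, had folds of 7.62, 4.87 and 5.12 in GFP cells, against of 7.76, 7.19 and 9.53 in MAFG cells. ANKRD17 and GCLC-AS1 held the same core and had no MAFG-cell peak, and SELENOK, with TGACNNNGC, had 1, with a fold of 6.31.

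Known MAF and NRF2 site genes held 2 of the regions. A gene was counted when a region overlapped its body or 5000 bp on either side. Over all protein-coding genes 2384 of 20037 (11.9%) had a MAFG-without-MITF region and 5114 (25.5%) a shared one. Of the 20037 genes 186 had a MAFG-without-MITF region that was called in at least 2 MAFG-cell lists. Of 24 known MAF and NRF2 site genes 2 (8.33%), GCLC and PRDX1, had the former and 11 (45.8%) the latter. The GCLC region, at chr6:53492749-53493700 and 4027 bp from the gene, had folds of 6.16 and 5.91 in 2 lists. The region at PRDX1, a peroxiredoxin gene, also overlaps MMACHC and had folds of 7.42, 4.34 and 4.68. Neither was called in MAFG cells.

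Genes of small MAF proteins and their partners held 5 of the regions. Of 12 small MAF and partner genes 4 (33.3%) had such a region, and 7 (58.3%) a shared one. NFE2L2 had folds of 4.58 and 5.4 in 2 lists, and BACH1, which encodes a heme-sensing repressor, had 6.89, 4.74 and 5.70. NFE2L3, another cap'n'collar gene, had 6.14, 4.59 and 4.47, and 1 MAFG-cell list also had a peak there, with a fold of 5.56. BACH2 had 2 regions. None of the 4 genes had a region called in at least 2 MAFG-cell lists. Of 12 AP-1 family genes 1 (8.33%), the stress-induced ATF3, had a region, with folds of 8.95, 5.91 and 6.94.

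Pigment cell genes also carried regions without MITF. Of 20 MITF and pigment genes 5 (25%) had 10 regions in all, and 9 (45.0%) had a shared region. MITF itself had 1, at chr3:69764215-69765580, with folds of 6.03 and 6.20 in 2 lists. TYRP1 and DCT, enzymes of melanin synthesis, had folds of 10.06, 5.26 and 6.94 and of 9.24 and 5.79. PPARGC1A, a coactivator gene of mitochondrial biogenesis, held 6 regions, of which 1, at chr4:24419016-24420163, was called in both lines. Its folds were 6.80, 7.66 and 6.94 in GFP cells and 8.97 and 7.44 in 2 MAFG-cell lists. TFAP2A, a neural crest regulator, had folds of 4.92 and 2.89.

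Of 16 genes of the dedifferentiated melanoma state 6 (37.5%) had 8 regions, and 7 (43.8%) had a shared region. They were EGFR, TEAD1 (a partner of YAP), the matrix gene TNC, the integrin gene ITGA2, TGFBI and NT5E. NT5E, which encodes the ectonucleotidase CD73, was the 1 with a region called in both lines. Its folds were 7.23 and 4.77 in 2 GFP-cell lists and 4.61 and 5.66 in 2 MAFG-cell lists. The mean percentile rank of its MAFG-cell peaks was low, at 13.8. The TEAD1 region had an H3K4me3 fold of 72.0 in GFP cells. Of the 12 RAS and MAPK feedback genes 3 (25%) had a region and 9 (75%) a shared one. They were the phosphatase gene DUSP6, the inhibitor gene SPRY4 and the ETS factor gene ETV1, and at each a region had H3K4me3, with folds of 69.79, 115.24 and 33.81. Median gene lengths were 34202 bp for pigment genes, 37190 bp for dedifferentiated genes and 24115 bp for all protein-coding genes, and the part of length in these counts was not tested.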

How the data were processed

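CUT&RUN of about 250000 cells per sample gave 14 peak lists, 1 per library, so peaks were called per sample. The submitters' processing notes name GRCh38 (hg38), cutadapt 1.8.1, Bowtie2 2.4.1, MACS2 2.1.1.20160309, ChIPseeker 1.32.1 and deepTools, without their roles. The control and the calling settings are not given in the sources used here. The deposited lists hold, for each peak, the authors' fold enrichment (a linear ratio) and the authors' −log10 p-value and −log10 q-value, with a summit offset. These values are the authors' own and were used only to describe, rank or filter peaks within a list.

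Peaks on chromosomes 1 to 22, X and Y were merged where they overlapped by at least 1 bp. A percentile rank runs from 0 to 100 within a list, 100 being the highest fold, and the rank of a region is its mean over lists with a peak. Genes and promoter windows came from RefSeq on GRCh38.p14, with 35116 windows of 27305 genes and none on chromosome 8. Gene ends carry no strand, and exons and introns were not used. Shares per MAFG-cell library were compared by exact permutation over libraries. The sign-flip tests planned for H3K4me3 and gene ends are not reported, since their libraries also chose the regions. Work was done with Python 3.11.15, pandas 2.3.3 and scipy 1.17.1. The selection was checked on simulated lists, where 200 of 200 planted regions were recovered. Simulated background peaks were kept away from the planted regions, so this checked the code and not the effect of crowded peaks.

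The regions, gene lists and tests were chosen with earlier results of these data known. Named were the 12 best regions by GFP-cell rank in 3 of 3 lists, the 12 best by MAFG-cell rank, the 8 best with H3K4me3, those at listed genes, those called for MITF in MAFG cells, and the 3 best and worst at either side of the rule. One region that met this rule is not reported here. The comparisons by H3K4me3 within the regions, by MAFG-cell rank and by promoter motif were added after the data were seen. Same-numbered anti-MAFG and anti-MITF libraries did not deviate together region by region (correlations -0.0076, -0.008 and -0.0064 over 43576 regions). The numbers were not taken as pairs, but this check cannot show a shared effect on list length. The result with a replicate block is given below.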

Additional observations from a re-analysis of the deposited data

Results flagged for a closer look

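The order of the sets by within-list rank was opposite in the lines. Among peaks of the anti-MAFG lists, the median percentile rank in MAFG-without-MITF regions minus that in shared regions was -21.0 in GFP cells (-22.4, -19.5 and -21.3 in the 3 lists) and 11.2 in MAFG cells (12.9, 12.8 and 7.93). All 3 libraries of one line moved one way and all 3 of the other the opposite way. The difference between the lines was not tested. The GFP-cell lists also chose the regions, only regions with a peak in a list enter its median, and the MAFG-cell lists were shorter, with 1836 to 2818 peaks against 14879 to 26221. The part of list length in this pattern was not tested.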

How the results depend on the processing

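Of 140 values under alternatives, none changed direction or side of the threshold, which the designs could not pass, and 12 moved by over 1.5 times. Of these, 3 concern the number of regions. It was 5564 as reported, 2004 with 3 of 3 anti-MAFG lists required, and 2360 to 6655 when 1 GFP-cell list at a time was left out, the low values being 2360 without anti-MAFG replicate 1 and 2680 without replicate 2, both of which then require 2 of 2 lists. It was 4049 with the same 14879 best peaks in each list, 4422 with −log10 q of at least 5, 5452 with peaks within 500 bp merged and 5564 with overlap over at least 50% of the shorter interval. The other 9 were the difference from shared regions in MAFG-cell anti-MAFG calls, which went from -3.09 to -1.03 points within rank classes, the difference by H3K4me3 (-3.92 to -2.10 with −log10 q of at least 5), 3 values of the TGANTCA difference (17.5 points, 27.0 to 34.7) and 4 of the CACGTG share (2.08%, 3.13% to 3.64%). Leaving out 1 library at a time moved the anti-MAFG minus anti-MITF difference in MAFG cells between 5.54 and 8.04 points, the H3K4me3 difference between -25.7 and -23.9, the gene-end difference between -12.6 and -11.2 and the difference from shared regions in MAFG-cell anti-MAFG calls between -3.93 and -2.69. With a replicate block the anti-MAFG minus anti-MITF difference was 6.24 points (exact sign-flip permutation test, p = 0.25, the smallest possible); the block changed no call. After the data were seen, summits inside an H3K4me3 peak gave -24.1 points and MAFG-cell summits within 250 bp gave -2.67. The smallest p-values were 0.1 and 0.25 by design, so they say nothing about stability. Depth is not given in the lists, and sequence outside promoter windows was not used here.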
